A study of Mus musculus with 44 samples.

Results

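DNA methylation is described here at 9 mouse genes around acetylcholine, in whole blood and 2 brain regions of mice that had all received an inhibitor of cholinesterases and were then given bacterial endotoxin or saline. The genes are a fixed list of names, with no threshold on methylation, and were chosen with earlier results of these data known. Ache encodes acetylcholinesterase, Bche encodes butyrylcholinesterase, and Colq and Prima1 encode the proteins that anchor acetylcholinesterase. Chat encodes choline acetyltransferase, Slc18a3 the vesicular acetylcholine transporter and Slc5a7 the high-affinity choline transporter. Pon1 and Pon2 encode paraoxonases. They are 9 of the 21883 protein-coding genes of the RefSeq annotation (GRCm38). All cytosines from 1000 bp before to 1000 bp after the annotated span of each gene were taken, which gave 496 different cytosines over the tables, between 278 and 416 in any 1 table of 1083654 to 1380165 cytosines.

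Acetylcholine is made from choline and acetyl-CoA by choline acetyltransferase, packed into vesicles by the vesicular transporter, and cleaved after release by acetylcholinesterase, after which the choline transporter takes choline back into the nerve ending. The collagen tail ColQ ties acetylcholinesterase to the basal lamina of the neuromuscular junction, while PRiMA ties it to membranes in the brain. Butyrylcholinesterase circulates in plasma, and serum paraoxonase 1 hydrolyses the active oxon forms of several organophosphates. Methylation of cytosine in CpG dinucleotides is usually low at CpG-rich gene starts and high inside and between genes, and it differs between cell types.

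The study used adult male wild-type C57BL/6J mice, 8 to 12 weeks old. Every group drank water with corticosterone (CORT) for 7 days, at 200 mg/L with ethanol at 0.6%. On day 8 every group received diisopropyl fluorophosphate (DFP), an irreversible cholinesterase inhibitor, intraperitoneally at 4 mg/kg. CORT was then given again in alternate weeks, and the schedule ran for 5 weeks. On the final day the mice received lipopolysaccharide (LPS, 0.5 mg/kg, under the skin), the endotoxin of Gram-negative bacteria, or saline. None of the 12 groups went without CORT and DFP, so the effect of the inhibitor itself cannot be read from them. Whole blood gave 4 libraries at 6 h, 3 at 12 h and 3 at 24 h after LPS, and 4 after saline. Hippocampus gave 4, 3 and 4 libraries after LPS and 3 after saline, and frontal cortex gave 4 in each group, 44 libraries in all. Saline tissue came from the 6 h time alone. The later LPS groups therefore differ from it in hours since injection as well, and the 3 comparisons of a tissue share their saline libraries. Whether replicates are separate animals is not stated in the labels, and p-values then cover only the variation among these libraries, part of which may be technical.

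The measurement was reduced representation bisulfite sequencing, which reads the share of molecules methylated at cytosines in CpG-dense fragments. Its coverage of the 9 genes was uneven. Ache (chromosome 5, 137288247 to 137294466) held 116 cytosines, Prima1 (chromosome 12, 103194453 to 103242719) 102, Chat (chromosome 14, 32408203 to 32465909) 145 and Slc18a3 (chromosome 14, 32462437 to 32464850) 106. Slc18a3 lies inside Chat, so all its cytosines also count for Chat, and the pair is 1 locus rather than 2 independent readings. Pon2 (chromosome 6, 5264620 to 5298345) held 67 cytosines, Slc5a7 (chromosome 17, 54273590 to 54299038) 37 and Colq (chromosome 14, 31523082 to 31577863) 16. Pon1 (chromosome 6, 5168090 to 5193987) held 8 and Bche (chromosome 3, 73635805 to 73708436) 5. The windows of Ache and Colq also overlap other annotated genes (Gm42456, Mir8116 and Ufsp1 at Ache, LOC102639719 at Colq).

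The starts of the genes differ in base composition, and 4 of them are shown because the levels described below turn on them. Each run gives 250 bases before to 50 after the annotated start from RefSeq (GRCm38.p6), on the strand of the gene, with the CpGs that were measured in at least 1 table in capitals. They are chr5:137288004-137288303 (plus strand) for Ache, chr12:103242097-103242396 (minus) for Prima1, chr14:32465860-32466159 (minus) for Chat and chr14:32464801-32465100 (minus) for Slc18a3.
Ache: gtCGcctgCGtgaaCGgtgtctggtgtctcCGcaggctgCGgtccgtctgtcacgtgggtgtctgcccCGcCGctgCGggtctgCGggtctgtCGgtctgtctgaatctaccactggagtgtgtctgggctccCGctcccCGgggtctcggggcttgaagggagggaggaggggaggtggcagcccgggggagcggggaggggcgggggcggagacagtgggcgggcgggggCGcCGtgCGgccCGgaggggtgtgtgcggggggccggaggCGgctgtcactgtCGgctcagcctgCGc
Prima1: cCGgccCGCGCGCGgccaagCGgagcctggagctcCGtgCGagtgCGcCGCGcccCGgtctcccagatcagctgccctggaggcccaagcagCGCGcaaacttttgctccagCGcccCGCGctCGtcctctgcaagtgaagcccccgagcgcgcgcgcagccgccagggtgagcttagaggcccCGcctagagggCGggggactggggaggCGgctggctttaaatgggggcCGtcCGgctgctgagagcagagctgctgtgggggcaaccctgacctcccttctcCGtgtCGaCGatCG
Chat: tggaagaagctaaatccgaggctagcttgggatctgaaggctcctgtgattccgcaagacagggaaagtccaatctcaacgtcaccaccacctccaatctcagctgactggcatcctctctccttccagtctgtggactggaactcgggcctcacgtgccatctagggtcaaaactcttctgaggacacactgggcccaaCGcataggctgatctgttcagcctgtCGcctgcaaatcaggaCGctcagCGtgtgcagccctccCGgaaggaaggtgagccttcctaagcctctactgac
Slc18a3: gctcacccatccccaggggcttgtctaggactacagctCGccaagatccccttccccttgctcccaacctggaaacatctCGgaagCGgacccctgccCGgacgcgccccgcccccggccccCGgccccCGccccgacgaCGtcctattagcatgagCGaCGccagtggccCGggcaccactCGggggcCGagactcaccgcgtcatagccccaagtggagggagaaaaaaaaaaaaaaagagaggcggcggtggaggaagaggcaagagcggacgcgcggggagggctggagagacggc
The windows of Ache (30 CpGs, 19 measured), Prima1 (33, 27 measured) and Slc18a3 (27, 12 measured) are CpG-rich, whereas that of Chat holds 10, of which 5 were measured. Among the other members, Pon2 has 31 CpGs with 17 measured, and Bche (8), Slc5a7 (1) and Pon1 (3) have none measured. The GC box letters GGGCGG, searched on both strands, occur 4 times at Ache, 3 at Pon2, 2 each at Bche and Slc18a3 and 1 at Prima1, and in 35.6% of 32817 such windows of the annotation. The EGR letters GCGGGGGCG, also searched on both strands, occur 2 times at Ache and in 2.91% of all windows. The letters TGACGTCA (cyclic AMP response element) occur in none of the 8 windows and in 1.79% of all. A match of letters is a description and not a site of binding.

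Some facts of the libraries bear on what follows. Saline blood libraries correlated with brain libraries (median r 0.780 over 295754 cytosines) about as closely as with LPS blood libraries (0.790), whereas LPS blood libraries correlated with brain libraries at 0.671 and blood libraries of 1 treatment with each other at 0.940 (LPS) and 0.929 (saline). The mean over all cytosines of the table was 35.5% in LPS blood at 6 h and 33.6% in saline blood (exact two-sided permutation p = 0.0286, the smallest possible), and the difference at 12 h and 24 h was 2.45 and 2.03 points (exact p = 0.0571, the smallest possible). In hippocampus the library mean differed by -1.16 points at 6 h (exact p = 0.0571) and by -0.39 and -0.56 points later, and in cortex by at most 0.27 points in size. Of 13 neutrophil marker genes, the 9 with a value had a mean methylation of 33.0 to 44.2% in the LPS blood libraries and 62.5 to 66.8% in the saline blood libraries, and in the brain libraries of 68.1 to 81.3%. Of the neutrophil markers tested, 9 of 9 fell at 6 h, 8 of 9 at 12 h and 9 of 9 at 24 h, with median differences of -28.7, -30.9 and -32.0 points, where 9.8%, 7.95% and 8.87% of all genes tested fell. General leukocyte markers averaged 43.9 to 48.0% in LPS blood and 50.7 to 55.1% in saline blood. Of 9 tested, 6 fell at each time and 1, 2 and 1 rose. In whole tissue, a change in the mix of cell types and a change of methylation within cells cannot be told apart, and the part of these marker shifts in the results below was not tested.

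**Figure D1:**
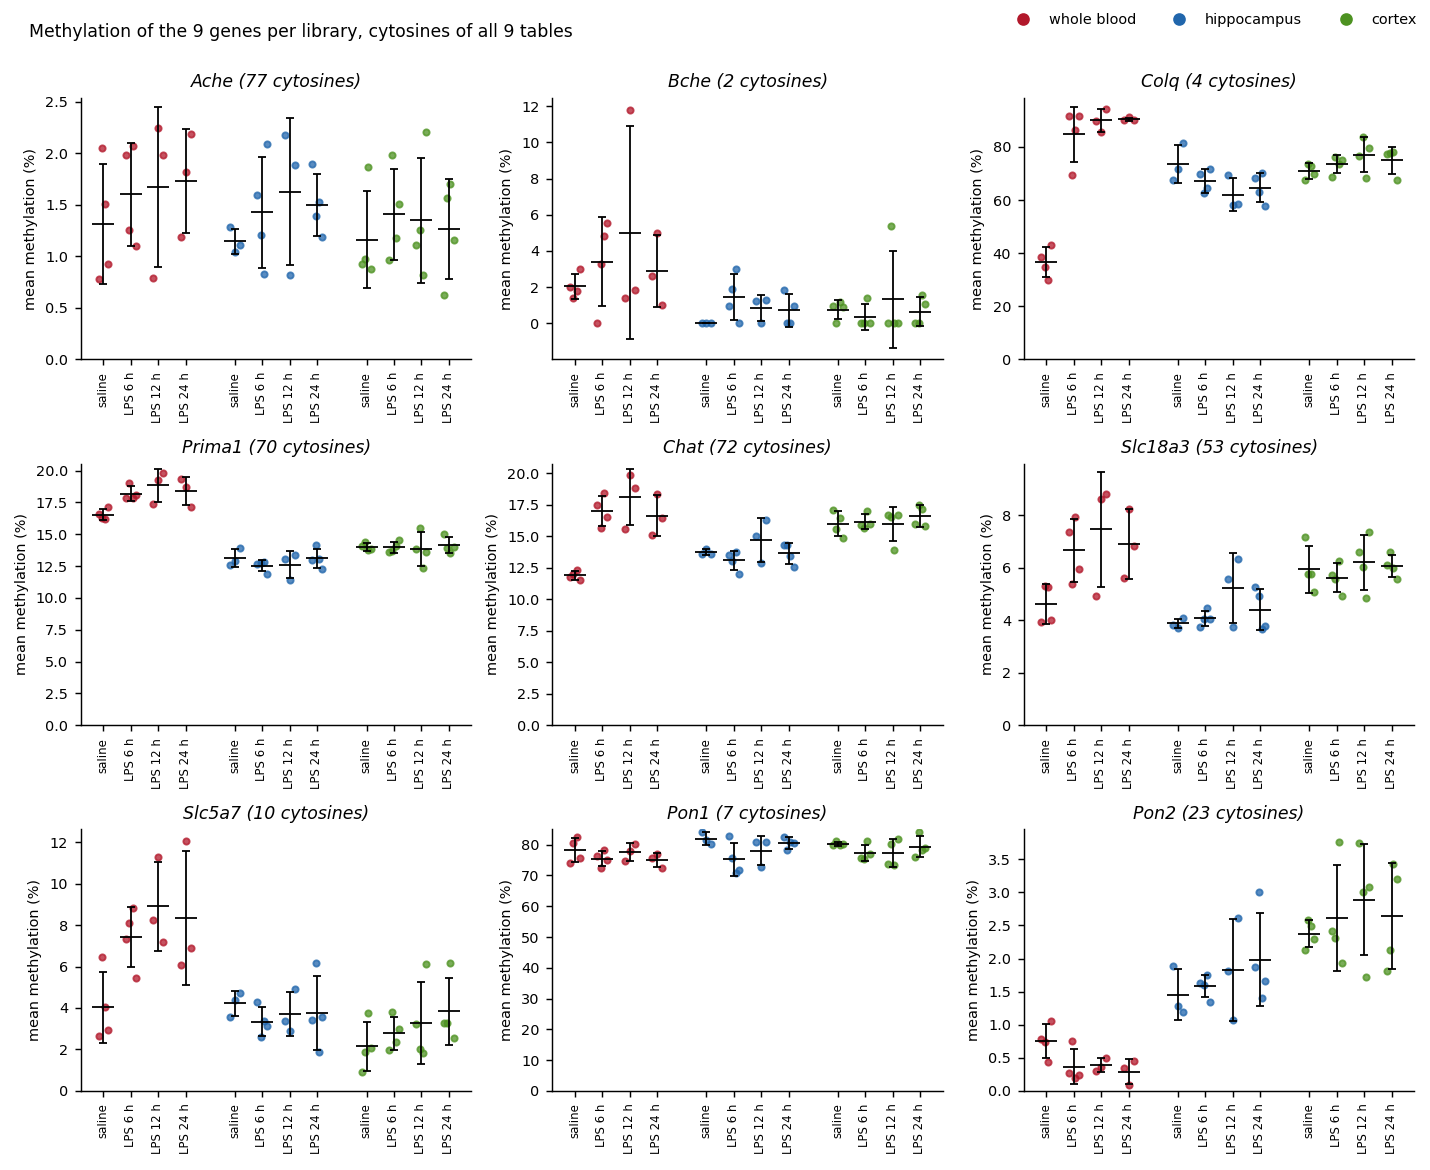
Mean percent methylation of each of the 9 genes over the cytosines found in every table, in the 12 groups of tissue and treatment. Points are libraries and black bars are group means with SD. Colq in saline blood, at 29.8 to 43.3%, lies below every other Colq library, and Ache and Pon2 stay under 4% in every library.

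On the cytosines common to all tables, the level of each gene ran in its own order over the 12 groups. Colq was highest in LPS blood, at 84.7, 89.98 and 90.5% after 6, 12 and 24 h, followed by cortex (71.0 to 77.1%) and hippocampus (62.1 to 73.6%), and lowest in saline blood, at 36.6% ± 5.7 (SD, n = 4). Its neighbouring groups in that order overlapped in 10 of 11 steps, and the step above saline blood was the exception. Colq rested on 4 cytosines here. Prima1 was highest in LPS blood (18.2 to 18.8%), followed by saline blood (16.5%), cortex (13.8 to 14.1%) and hippocampus (12.5 to 13.1%). Its order had gaps without overlap on either side of saline blood. Chat was highest in LPS blood (16.6 to 18.1%), followed by cortex (16.0 to 16.6%) and hippocampus (13.1 to 14.7%), and lowest in saline blood (11.9%), with overlap at every step. Slc18a3 lay between 7.46% (LPS blood, 12 h) and 3.88% (saline hippocampus), and Slc5a7 between 8.91% (LPS blood, 12 h) and 2.16% (saline cortex), with no overlap at the step between saline hippocampus and LPS blood at 6 h. Pon1 stayed between 74.9 and 82.0% in all groups, Ache between 1.14 and 1.73%, and Bche, on 2 cytosines, between 0 and 5.02%. Pon2 was at 0.29 to 0.75% in the blood groups, 1.45 to 1.98% in hippocampus and 2.38 to 2.89% in cortex.

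In blood, 4 of the 7 members tested at 6 h rose after LPS, 4 of 7 at 12 h and 3 of 6 at 24 h, and no member fell at the gene level. A gene was tested where its mean was 5 to 95% over at least 3 cytosines, and was called at an adjusted p under 0.05 (limma, Benjamini-Hochberg over all genes tested). The same rule called 52.3% of all genes tested at 6 h, 56% at 12 h and 49.7% at 24 h, and 42.5%, 48.1% and 40.9% rose, so the members' counts were near the background. Over all genes the median difference was 1.15, 1.65 and 1.27 points, with 5377 genes higher and 1241 lower at 6 h, 5756 higher and 952 lower at 12 h, and 5108 higher and 1108 lower at 24 h. After the mean of a library was subtracted from its values (centring), these splits became 3237 higher and 4740 lower, 3156 and 4491, and 3120 and 4099. Differences of 1 or 2 points in blood therefore depend on whether they are read against the shift of the whole library.

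**Figure D2:**
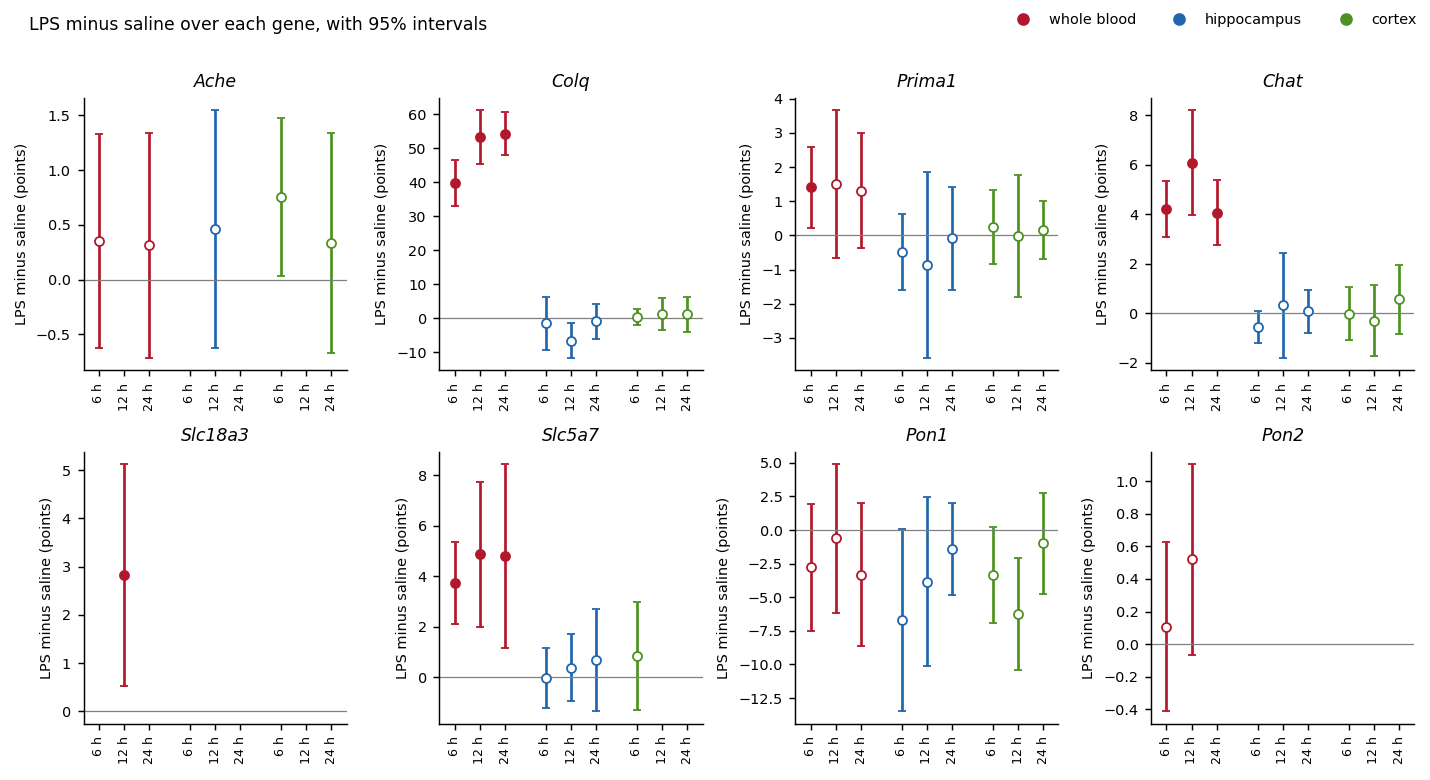
LPS minus saline difference in mean percent methylation, in percentage points with its 95% interval, for the 8 members that were tested in at least 1 of the 9 comparisons of tissue and time. Filled points passed the test over all genes. Colq stands at 39.8 to 54.3 points in blood, and no brain point is filled.

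Ache, the target of DFP in brain and red blood cells, was almost free of methylation at most of the cytosines that every table shared, and methylated in 1 stretch inside its window. Of the 77 shared cytosines, 73 stayed under 10% in all 12 groups. The promoter window averaged 0.22 to 0.96% in LPS groups and 0.38 to 1.18% in saline groups. At the gene level Ache had 11.2, 10.2, 11.4 and 10.3% in LPS blood at 6 h, against 9.72, 11.3, 10.3 and 10.3% in saline blood, a difference of 0.35 points (95% interval -0.63 to 1.33, adjusted p = 0.533) between groups that overlapped. At 24 h the difference was 0.31 points (adjusted p = 0.602), and at 12 h the gene was under the 5% floor. The same saline libraries averaged 10.4% over the 88 cytosines of the 6 h comparison and 1.32% over the 77 of the 12 h comparison. The level of Ache at each time therefore depends on which cytosines were measured. The mean over all cytosines rose by more, 1.92 points at 6 h and 2.03 at 24 h. Centring, which is described above, subtracts that shift from every gene. After it both differences are negative and pass the test (limma, -1.57 points, adjusted p = 0.00434, and -1.71 points, adjusted p = 0.029). Those signs come from the subtraction, and the uncentred percent of Ache did not fall. The 1 tile of Ache that was tested, at 137291000, had 82.2% ± 1.5 in LPS blood and 81.5% ± 2.6 in saline blood at 6 h (SD, n = 4 each). None of the cytosines of Ache tested in blood, 12 at 6 h, 4 at 12 h and 10 at 24 h, was called.

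Bche, the plasma cholinesterase that also binds organophosphates, was covered by 5 cytosines close to its start and was too low to test. Its mean was 4.46, 7.50, 5.09 and 3.99% in LPS blood at 6 h, against 3.02, 1.95, 3.57 and 2.50% in saline blood. All 4 LPS libraries lay above all 4 saline libraries there, but at 24 h the groups overlapped (2.65, 5.42 and 4.91% after LPS). In brain it averaged 2.27 to 3.98% in LPS groups and 2.02 to 3.16% in saline groups.

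Colq, the collagen tail of junctional acetylcholinesterase, showed the largest difference of the 9 genes. Its mean was 95.3, 80.8, 88.4 and 90.5% in LPS blood at 6 h, against 51.1, 46.6, 45.3 and 52.6% in saline blood, over 10 cytosines. The lowest LPS library, at 80.8%, lay far above the highest saline library, at 52.6%. The difference was 39.8 points (SE 2.997, 95% interval 33.0 to 46.7, limma adjusted p = 1.28e-05). At 12 h LPS blood had 89.7, 85.8 and 94.4%, against 38.4, 34.9, 29.8 and 43.3% in saline blood on 4 cytosines, a difference of 53.4 points (SE 3.33, adjusted p = 1.24e-05). At 24 h it was 95.6, 94.0 and 94.1% after LPS, against 42.7, 36.2, 35.5 and 46.8% after saline on 9 cytosines, a difference of 54.3 points (SE 2.72, adjusted p = 4.15e-06). The 3 times rest on partly different cytosines, so their differences are not directly comparable. Few genes moved as far: 0.726, 0.234 and 0.176% of all genes tested had a larger difference at the 3 times, and 3.03, 0.851 and 0.557% of those with at most 15 cytosines. The difference was past the test under every alternative in which Colq could be tested, also after centring (37.9 points at 6 h). Colq had no cytosine within 1000 bp of a span end, so that alternative could not test it. The alternative with at least 10 cytosines could test it at 6 h alone.

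The Colq difference came from 9 cytosines inside the gene, between 31544731 and 31544925 on chromosome 14. In LPS blood at 24 h they lay between 83.0% and 100%, and in saline blood between 29.0% and 56.7%. The largest single difference was at 31544902 (plus strand), with 100, 96.3 and 92.9% in LPS blood at 24 h, against 30.4, 34.6, 21.1 and 41.7% in saline blood. That is 64.4 points (SE 6.51, adjusted p = 8.62e-06). At 6 h the largest was at 31544877 (plus strand), at 93.0% in LPS blood and 36.0% in saline blood, and at 12 h it was at 31544776 (plus strand), at 86.8% and 29.3%. Just past the stretch, 31545070 and 31545085 had 91.9 and 94.0% in LPS blood at 6 h and 88.8 and 89.7% in saline blood. The difference was therefore not seen at those positions. No other Colq cytosine outside the stretch was measured in blood at any time, so coverage limits where its edges can be placed. Of the cytosines tested, 8 of 10 rose at 6 h, 4 of 4 at 12 h and 9 of 9 at 24 h. In hippocampus the cytosines of the stretch had group means of 46.2 to 94.8% after LPS and 63.0 to 90.5% after saline, and in cortex of 65.6 to 86.5% after LPS and 56.3 to 87.3% after saline.

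**Figure D3:**
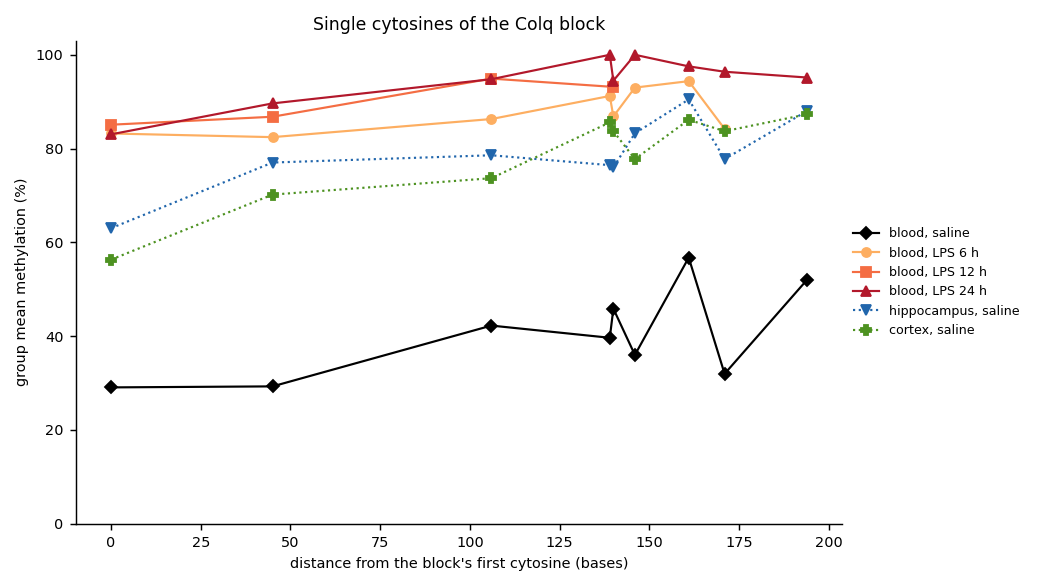
Group mean percent methylation at the 9 cytosines of the Colq stretch against their distance in bases from the first, for saline and LPS blood and for saline brain. Saline blood lies lowest at every cytosine, between 29.0 and 56.7%, and both saline brain regions lie between it and LPS blood.

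Prima1, the membrane anchor of brain acetylcholinesterase, had 27.1, 29.1, 27.5 and 28.0% in LPS blood at 6 h, against 27.0, 26.7, 25.7 and 26.7% in saline blood. The LPS libraries all lay above the saline ones, though the closest pair differed by little. The difference of 1.41 points (SE 0.52, adjusted p = 0.0485) was near the median of all genes. It turned to -0.51 points after centring and lost its call without any of 7 of the 8 libraries. At 12 h and 24 h it was 1.51 and 1.31 points (adjusted p = 0.204 and 0.174). Its start was almost free of methylation, at 1.97 to 2.08% in LPS blood and 0.95% in saline blood, and 0.11 to 0.49% in brain.

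Single stretches of Prima1 moved further and in both directions. The 1 kb tile at 103214000 had 70.03, 79.1, 74.0 and 71.4% in LPS blood at 6 h, against 61.8, 59.7, 60.7 and 69.3% in saline blood. The groups did not overlap, and the difference was 10.7 points (SE 3.27, adjusted p = 0.0159), a call lost without saline replicate 2 (9.68 points). At the later times the groups overlapped and the tile was not called, at 61.1, 81.7 and 79.97% in LPS blood at 12 h (11.3 points, adjusted p = 0.0713) and 79.5, 73.5 and 62.5% at 24 h (8.94 points, adjusted p = 0.112). The cytosine at 103214657 (minus strand) in it had 87.5% ± 8.5 in LPS blood and 65.3% ± 10.01 in saline blood (SD, n = 4 each), and it had the widest range of any member cytosine over the 12 groups, 65.4 points. In contrast, 103212114 (minus strand) had 56.2, 82.6, 64.3 and 60.0% in LPS blood at 6 h, against 90.6, 84.8, 84.9 and 81.5% in saline blood. It fell by 19.6 points (adjusted p = 0.0163), and LPS replicate 2 lay within the saline range. The call was lost without LPS replicate 1 (-16.5 points) or saline replicate 1 (-17.9 points). At 12 h it fell by 33.2 points, but LPS replicate 1 stood at 15%, the others at 66.1 and 75.6%. Without that library the difference was -14.6 points, and the call was lost without it or without any saline library. At 24 h it fell by 28.4 points (adjusted p = 0.00389).

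Chat, which makes acetylcholine, had 15.4, 14.4, 16.7 and 14.5% in LPS blood at 6 h, against 10.8, 11.1, 11.3 and 10.9% in saline blood, over 97 cytosines. The groups did not overlap at any time. The difference was 4.20 points at 6 h (SE 0.50, adjusted p = 0.000145), 6.08 at 12 h (SE 0.90, adjusted p = 0.000863) and 4.06 at 24 h (SE 0.57, adjusted p = 0.000634). These calls remained under all alternatives run for them, with 2.28, 3.63 and 2.03 points after centring. At 6 h 29.2% of all genes had a larger difference, so the size of the Chat difference was not unusual in blood. The 3 times rest on 97, 74 and 97 cytosines, so their differences are not directly comparable. On the 72 shared by all comparisons, Chat had 17.0, 18.1 and 16.6% in LPS blood and 11.9% in saline blood.

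The rise within Chat was uneven along the gene. The tile at 32443000 had 58.1, 63.4, 64.4 and 57.0% in LPS blood at 6 h, against 37.0, 30.2, 32.8 and 37.6% in saline blood. The groups did not overlap, and the difference was 26.3 points (SE 3.13, adjusted p = 8.53e-06), with 25.2 and 18.7 points at the later times. Its cytosine at 32443500 (minus strand) had 75.1% ± 2.7 in LPS blood and 32.0% ± 7.5 in saline blood (SD, n = 4 each). The tile at 32411000, towards the 3' end, had 87.4% in LPS blood at 6 h and 68.9% in saline blood (18.5 points, adjusted p = 9.6e-05), 20.6 points at 12 h and 18.8 at 24 h. The tile at 32460000 had 7.38, 21.9 and 8.85% in LPS blood at 12 h, against 3.16, 3.73, 3.35 and 1.91% in saline blood. It rose by 9.68 points (adjusted p = 0.0153), with LPS replicate 2 far above the others, and without that library the tile was not among those tested. The 6 h difference of 4.63 points (adjusted p = 0.00522) was under the 5 points a tile call needed, and the tile was not tested at 24 h. Of 36, 36 and 34 cytosines of Chat tested, 8, 13 and 9 rose and none fell.

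At the start of Chat the contrast lay between blood and brain. The 3 measured cytosines from 75 to 14 bases into the gene that every group shared had 15.7 to 28.0% in saline hippocampus, 25.4 to 27.8% in saline cortex and 0.919 to 5.83% in saline blood. LPS blood was also low there, at 1.97 to 11.9%. In the promoter window, 6 cytosines were measured in 3 of the brain comparisons. LPS hippocampus averaged 19.2% ± 7.8 at 6 h (n = 4) and saline hippocampus 23.9% ± 1.6 (SD, n = 3), a difference of -4.73 points (adjusted p = 0.526). At 12 h the difference was -6.81 points (adjusted p = 0.817), and in cortex at 24 h it was 2.998 points (26.0% ± 9.8 in LPS and 23.0% ± 9.8 in saline cortex, n = 4 each). None of these passed the test. Without 1 library the difference ran from -8.30 to -2.76 points in hippocampus at 6 h, from -9.63 to -4.07 at 12 h and from -1.37 to 7.33 in cortex at 24 h, where it turned negative without LPS replicate 2 or saline replicate 4.

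**Figure D4:**
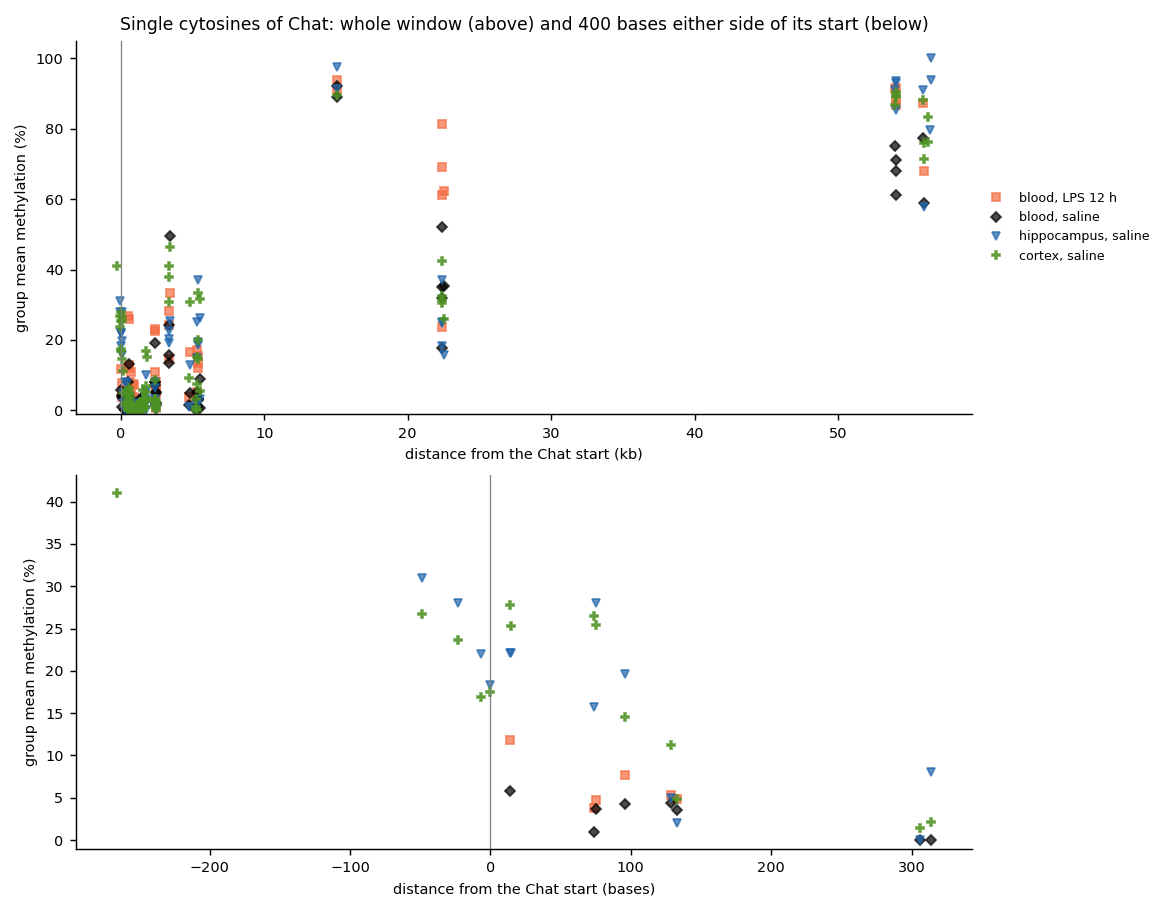
Group mean percent methylation of single Chat cytosines against distance in bases from the annotated start, over the whole gene and within 400 bases of the start, for LPS blood at 12 h and saline blood, hippocampus and cortex. Within 100 bases of the start the saline brain groups lie at 14.5 to 31.0%, and saline blood stays under 6%.

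Slc18a3, the vesicular transporter read inside the Chat locus, was lowly methylated. It had 6.21, 4.68, 7.10 and 4.82% in LPS blood at 6 h, against 3.04, 4.23, 4.33 and 3.27% in saline blood, a mean under the floor for testing. At 12 h LPS blood had 4.91, 8.63 and 8.83%, against 3.95, 5.30, 5.27 and 3.99% in saline blood. The groups overlapped, and the difference of 2.83 points (SE 0.98, adjusted p = 0.0416) lost its call without any of 6 of the 7 libraries and shrank to 0.38 points after centring. Its promoter window averaged 4.06, 4.48 and 3.95% in LPS blood after 6, 12 and 24 h and 0.54% in saline blood. Every LPS library there (2.12 to 6.78%) lay above every saline library (0 to 1.17%), but the window mean was under the 5% floor for testing. Without that floor it was called at 6 h and 12 h. In brain the window stayed at 0.20 to 0.88%. The cytosine at 32464460 (plus strand), 390 bases into the gene, had 16.7, 30.4 and 16.7% in LPS blood at 24 h, against 0, 0, 4.55 and 0% in saline blood, a difference of 20.1 points (SE 4.04, adjusted p = 0.00136).

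Slc5a7, the choline transporter, was measured only within 1 kb of its start. It had 9.12, 9.15, 9.61 and 7.75% in LPS blood at 6 h, against 6.25, 6.45, 3.56 and 4.38% in saline blood. The groups did not overlap at any of the 3 times. The difference was 3.75 points (SE 0.71, adjusted p = 0.00207) at 6 h, 4.88 (SE 1.22, adjusted p = 0.0109) at 12 h and 4.81 (SE 1.57, adjusted p = 0.0347) at 24 h. After centring it was 1.83, 2.43 and 2.79 points and no longer called, and the 24 h call was also lost without saline replicate 3 (4.28 points) or saline replicate 4 (4.55 points). Without LPS replicate 2 the 24 h difference shrank to 2.75 points and was still called. The cytosine at 54298684 (minus strand) had 13.3, 18.2 and 16.7% in LPS blood at 12 h, against 0, 7.69, 0 and 4.17% in saline blood (13.1 points, SE 3.43, adjusted p = 0.00988).

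Pon1, the serum paraoxonase, did not pass the test as a whole in blood, at -2.78 points at 6 h (95% interval -7.52 to 1.96), -0.62 at 12 h and -3.31 at 24 h. Taken as the median of its 7 cytosines, Pon1 was higher after LPS by 10.47 points at 12 h and 10.4 points at 24 h (adjusted p = 0.00933 and 0.00912). Its cytosines lie in neighbouring tiles that moved in opposite directions. The tile at 5171000 had 65.3, 62.5, 69.0 and 67.5% in LPS blood at 6 h, against 76.3, 85.2, 83.2 and 77.9% in saline blood. It fell by 14.6 points (SE 2.96, adjusted p = 0.00102), and by 11.4 and 17.1 points at 12 h and 24 h. The tile at 5172000 had 90.8, 85.8, 90.5 and 84.8% in LPS blood, against 71.1, 74.2, 81.9 and 73.0% in saline blood, and rose by 12.9 points (SE 2.76, adjusted p = 0.0015), 13.7 and 15.1 points. The LPS and saline libraries of either tile did not overlap at any time. Most of the fall came from 1 cytosine, 5171327 (minus strand), with 11.9, 20.5, 21.4 and 26.5% in LPS blood at 6 h, against 45.3, 69.6, 54.4 and 60.0% in saline blood. It fell by 37.3 points (SE 6.10, adjusted p = 0.000145) at 6 h, 42.4 at 12 h and 43.4 at 24 h, and stood at 68.2 to 78.2% in the brain groups. Its neighbour 5171186 (plus strand) had 75.9% in LPS blood at 6 h and 95.4% in saline blood (-19.5 points), whereas 5171750 differed by under 2 points at every time. The value of 5171186 is for 6 h alone. At 12 h 1 Pon1 cytosine was called as falling, against 2 at 6 h and 2 at 24 h.

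Pon2, the intracellular paraoxonase, was nearly free of methylation around its start, where 22 of the 23 cytosines seen in all groups stayed under 10%. It averaged 9.66% ± 0.11 in LPS blood and 9.55% ± 0.28 in saline blood at 6 h (SD, n = 4 each), a difference of 0.11 points, and 8.36% ± 0.09 (n = 3) and 7.84% ± 0.31 (n = 4) at 12 h, a difference of 0.52 points (95% interval -0.07 to 1.11, adjusted p = 0.117). Both turned negative after centring, at -1.81 and -1.93 points. The cytosine at 5290335 (plus strand), a methylated position far inside the gene, had 100% in all 3 LPS blood libraries at 12 h, against 88.5, 86.1, 95.5 and 77.8% in saline blood (13.0 points, adjusted p = 0.0179), a call lost without LPS replicate 2 or 3.

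**Figure D5:**
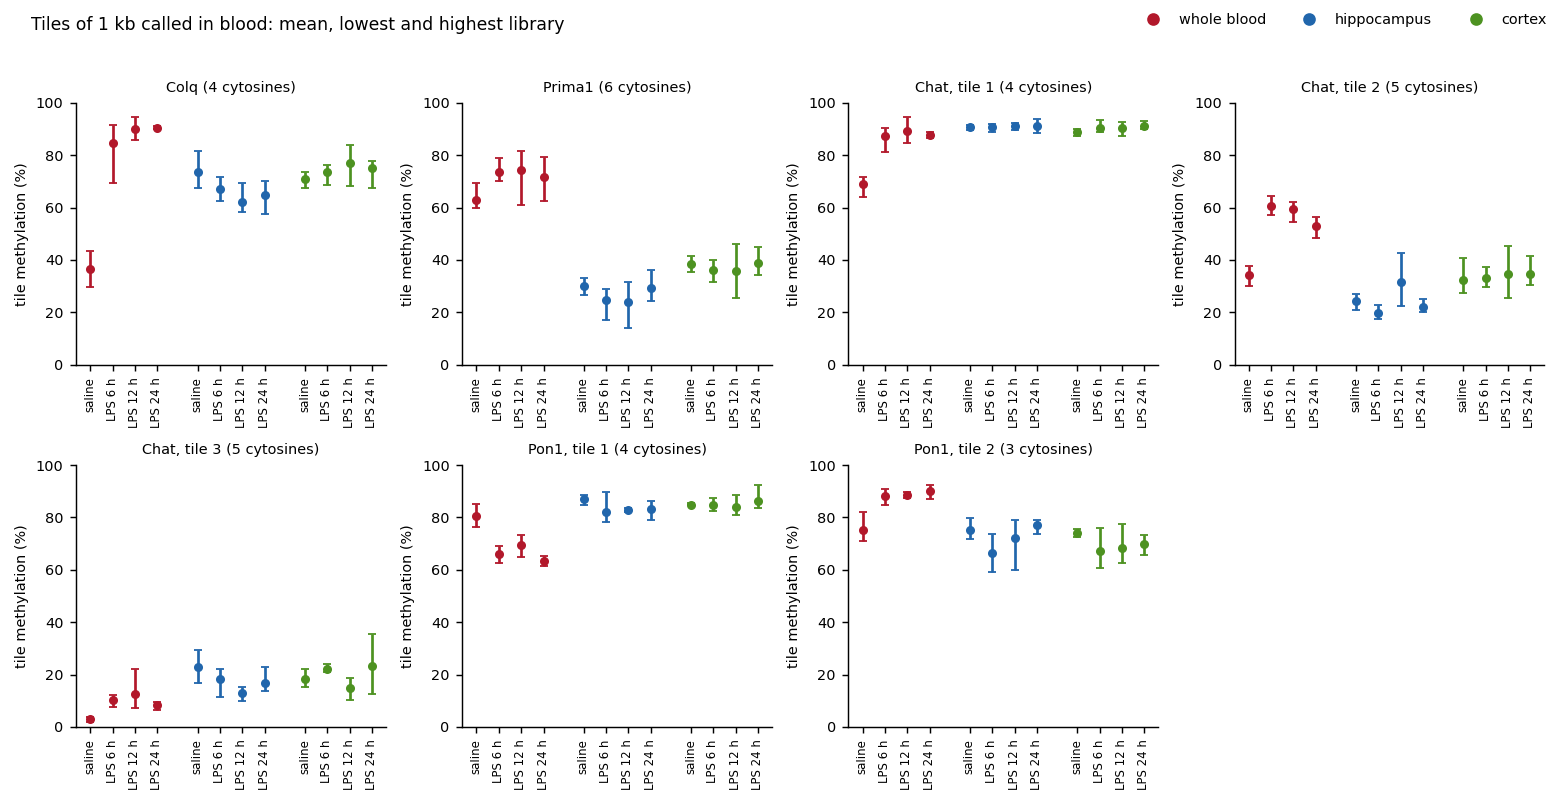
Mean percent methylation, with the lowest and highest library, of the 7 called 1 kb tiles in the 12 groups, over cytosines found in every table. In blood the Pon1 tile 1 (5171000) lies lower, at 63.5 to 69.3% after LPS and 80.7% after saline, and the other 6 tiles lie higher.

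Counted by tile (1000 bp, at least 3 cytosines and a difference of at least 5 points), 6 of 16 member tiles were called in blood at 6 h, 6 of 13 at 12 h and 5 of 14 at 24 h, where the background was 41.4%, 44.6% and 42.5%. Counted by single cytosine (a difference of at least 10 points), 24 of 105 were called at 6 h, 24 of 83 at 12 h and 27 of 98 at 24 h, against a background of 28.2%, 30.2% and 29.1%. The member shares of 22.9%, 28.9% and 27.6% lay within a few points of it. Of the 117 member cytosines tested at any time, 39 were called at least once, 35 of them upward and 4 downward. Of the 74 tested at all 3 times, 13 were called at all of them, 11 upward and 2 downward. The counts over several times were not made for all cytosines, so they have no background to be read against.

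In the brain no member, tile or cytosine of these genes was called after LPS. In hippocampus 5, 6 and 5 members were tested after 6, 12 and 24 h, with 6.46%, 0% and 0% of all genes called, and in cortex 6, 4 and 5, with 0% of genes called at each time. The background for tiles and for single cytosines was also 0% in all 6 brain comparisons. At an unadjusted p under 0.05, 3481, 275 and 1135 genes passed in hippocampus and 181, 187 and 287 in cortex (limma). Colq in hippocampus at 12 h had 78.4, 75.4 and 72.8% after LPS, against 83.0, 79.0 and 84.0% after saline. All LPS libraries lay below the saline ones there, and the difference was -6.50 points (95% interval -11.5 to -1.46, unadjusted p = 0.0193 and adjusted p = 1 by limma). Pon1 in cortex at 12 h had 68.8, 77.3, 71.0 and 71.7% after LPS, against 78.8, 79.0, 76.6 and 79.4% after saline, a difference of -6.25 points (95% interval -10.4 to -2.11, limma unadjusted p = 0.00802 and adjusted p = 1). The groups overlapped in 1 library. A larger difference was found in 0.533% of all genes and in 2.69% of those with at most 15 cytosines, of which Pon1 had 8. The largest single difference among the 8 was 28.9 points in size. On the 7 cytosines shared by all comparisons, cortex at 12 h had 77.3% ± 4.4 after LPS and 80.3% ± 0.6 after saline (SD). The size of this Pon1 difference therefore depends on which cytosines are counted. Pon1 in hippocampus at 6 h differed by -6.70 points (95% interval -13.5 to 0.09, adjusted p = 0.164). The 95% intervals of the Chat difference in brain lay between -1.80 and 2.41 points at all times, and those of Ache, where tested, between -0.67 and 1.55 points. In cortex at 6 h the Ache difference was 0.76 points (95% interval 0.04 to 1.48, limma unadjusted p = 0.0414 and adjusted p = 0.999).

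The LPS difference in blood was then compared with that in each brain region in 1 model of all 44 libraries. The model takes the libraries as independent, and whether blood and brain came from the same animals is not stated in the labels. Only cytosines shared by all comparisons entered, and for Colq these were 4, all within the stretch described above. For Colq the difference in blood exceeded that in hippocampus by 54.6, 65.0 and 62.8 points after 6, 12 and 24 h, and that in cortex by 45.6, 47.2 and 49.8 points (adjusted p at most 3.34e-08). For Chat it exceeded that in hippocampus by 5.80, 5.23 and 4.83 points and that in cortex by 4.98, 6.22 and 4.10 points (adjusted p at most 0.00461). Prima1 differed from hippocampus at 6 h and 12 h (2.25 and 2.81 points) and from cortex at 12 h (2.46 points), and Slc18a3 from cortex at 12 h (2.56 points). Of these 4, Prima1 at 6 h against hippocampus and Prima1 and Slc18a3 against cortex turn slightly negative after centring. Of 5 members tested, 3, 3 and 2 were called against hippocampus, where the background was 50.1%, 44.4% and 44.4%, and 2, 4 and 2 against cortex, where it was 39.2%, 46.2% and 37.5%.

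Between saline tissues, 3 of 4 members tested differed between hippocampus and blood, 3 of 4 between cortex and blood, and 1 of 4 between hippocampus and cortex, with a background of 52.2%, 53.5% and 12.1%. Colq was 37.0 points higher in hippocampus (73.6%) than in blood (36.6%) and 34.4 points higher in cortex (71.0%), with adjusted p = 1.14e-05 and 1.04e-05. Of all genes tested, 0.553% and 0.634% had a larger difference. Colq rested on 4 cytosines here, and no share among genes with few cytosines was computed for these contrasts. Prima1 was lower in hippocampus (-3.41 points, adjusted p = 2.65e-05) and in cortex (-2.54 points, adjusted p = 0.000119) than in blood, and its tile at 103214000 had 30.0% in saline hippocampus, 38.6% in saline cortex and 62.9% in saline blood. Chat was higher in hippocampus (1.84 points, adjusted p = 0.00784) and in cortex (4.08 points, adjusted p = 2.23e-05) than in blood, and 2.25 points lower in hippocampus than in cortex (adjusted p = 0.013). Pon1 differed by 3.71 and 2.04 points from blood (adjusted p = 0.133 and 0.368). Without the 5% floor Pon2 was also called in all 3 contrasts, at 0.70 points between hippocampus and blood and 1.63 points between cortex and blood. Its cytosine at 5297322 (plus strand) had 9.14% in saline hippocampus, 13.8% in saline cortex and 1.90% in saline blood.

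Between 24 h and 6 h after LPS, no member was called in any tissue (0%, 0% and 0% of all genes in blood, hippocampus and cortex, with 292, 424 and 114 at an unadjusted p under 0.05 in limma). This contrast rests on LPS libraries alone, and for Colq on 4 cytosines. Colq in blood differed by 5.79 points (95% interval -4.49 to 16.1), Chat by -0.41 (-2.55 to 1.73) and Pon1 in hippocampus by 5.31 (-0.26 to 10.9). Without 1 library the Colq difference ranged from 0.68 points (without LPS 6 h replicate 2) to 8.07, and that of Chat from -1.26 to 0.34, so its sign is not settled.

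Genes that receive the acetylcholine signal or handle choline were counted from lists of the pathway. In blood, 2 of 5 muscarinic receptor genes tested rose at 6 h, 4 of 5 at 12 h and 3 of 5 at 24 h, and 10 of 14, 8 of 13 and 8 of 14 nicotinic receptor subunit genes rose. The median differences were 1.89, 2.59 and 2.16 points for the muscarinic list and 3.82, 5.13 and 3.91 points for the nicotinic list, against 1.15, 1.65 and 1.27 points over all genes. Chrm1, a muscarinic receptor of brain far above the median of its list, had 83.2% ± 6.6 in LPS blood and 43.8% ± 3.0 in saline blood at 6 h (SD, n = 4 each), a difference of 39.4 points (adjusted p = 1.65e-05). Chrna6, a nicotinic subunit, had 73.9% ± 5.0 in LPS blood and 56.0% ± 3.6 in saline blood at 6 h (adjusted p = 0.000521). Of the genes that assemble or cluster nicotinic receptors, 3 of 6, 3 of 6 and 2 of 6 rose, among them Musk, the kinase of the neuromuscular junction, by 10.7 points at 6 h (adjusted p = 0.00187). Of other esterases and hydrolases, 3 of 6, 2 of 5 and 3 of 6 rose, among them Mgll, which cleaves monoacylglycerols and can be inhibited by organophosphates, by 12.2 points (adjusted p = 2.6e-06).

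Of the choline uptake and metabolism genes, 7 of 14 rose at 6 h and 1 fell, 7 of 14 rose at 12 h, and 5 of 13 rose and 1 fell at 24 h. Chkb, a choline kinase, had 48.2% ± 2.3 in LPS blood and 28.2% ± 1.0 in saline blood at 6 h (adjusted p = 3.53e-06), while Slc44a1, a choline transporter, fell by 0.90 points (adjusted p = 0.0341). In the brain 1 gene of all these lists was called, Pemt, a phosphatidylethanolamine methyltransferase, in hippocampus at 6 h (25.5% ± 1.1 after LPS and 29.6% ± 1.1 after saline, adjusted p = 0.0405). In that comparison 6.45% of all genes tested fell, and none was called with the replicate number as a block (limma). With 49.7% to 56% of all genes called in blood, these shares describe the lists and do not set them apart.

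Markers of other cell types gave the following counts in blood after 6, 12 and 24 h, where 42.5%, 48.1% and 40.9% of all genes tested rose and 9.8%, 7.95% and 8.87% fell. Neuron genes rose in 5 of 10, 6 of 9 and 7 of 10 cases, at 25.6 to 29.1% in LPS blood and 20.4 to 21.3% in saline blood. T cell markers rose in 3, 4 and 4 of 9 and fell in 3 of 9 each time, and B cell markers rose in 2 of 6, 2 of 5 and 2 of 6 and fell in 1, 2 and 2. Platelet and erythroid markers rose in 2 of 5, 3 of 4 and 2 of 5 and fell in 2, 1 and 2. Astrocyte genes rose in 3 of 6 and fell in 1 of 6 at each time, oligodendrocyte genes rose in 3 of 5 and fell in 2 of 5, and cholinergic neuron genes rose in 2 of 3, 3 of 4 and 2 of 3, of which Chat, Slc18a3 and Slc5a7 are themselves members.

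The genes whose 12 group means followed each member most closely were found among 4674 to 4691 genes with at least 10 shared cytosines. The points of each correlation share libraries and tissues, so r is a description, and the Colq means rest on 4 cytosines. For Colq they were Mst1r (r = 0.987), Tuft1 (0.984) and Mfng (0.981), and for Prima1 Cep170b (0.998), Mb21d2 (0.997) and Clta (0.997). For Chat they were Ppie (0.978), Tns1 (0.975) and Mybpc2 (0.975), for Slc18a3 Nlrx1 (0.968), Crim1 (0.965) and Gask1a (0.962), and for Slc5a7 Rap1gap2 (0.984), Cpsf1 (0.982) and Dst (0.982). Pon2 was closest to Mipol1 (0.981), Mvd (0.978) and Cyba (0.976). Pon1 and Ache had looser matches, with Rp1l1 (0.857), Sgca (0.833) and Mypn (0.830) for Pon1 and Flywch2 (0.892), Faf2 (0.867) and Neil1 (0.866) for Ache.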

How the data were processed

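Percent methylation (0 to 100) at single cytosines was deposited by the authors in 9 tables, each holding the LPS libraries of 1 tissue and time beside the saline libraries. Per the labels' protocols, libraries were built from 100 ng of DNA (Ovation RRBS Methyl-Seq). Bismark, Bowtie2, methylKit, SAMtools, FastQC and Trim Galore and the build GRCm38/mm10 are named per the submitters' processing notes, without versions, settings or a coverage minimum. Read counts are not part of the tables, depth is therefore unknown, and no counting interval can be given. Per-sample columns not used numbered 0.

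Means over cytosines per gene (span with 1000 bp on either side), promoter window (250 bases before to 50 after the start), 1000 bp tile and single cytosine were fitted with limma (version 3.58.1, under R 4.3.3) by lmFit and trended eBayes, LPS minus saline, two-sided, with Benjamini-Hochberg adjustment over all features of a comparison, at least 3 cytosines and a mean of 5 to 95%. Calls needed an adjusted p under 0.05, and also 5 points for tiles and 10 points for cytosines. Tissue, time and blood-against-brain contrasts used the 913806 cytosines found in all 9 tables. Library means were compared by exact permutation. Gene spans and the sequences of the promoter windows came from RefSeq tables. Exons and introns are not given here. The scripts were tested on simulated data. Named cytosines and tiles are, for each member and comparison, up to 3 called ones with the largest difference, and the cytosine with the widest range over groups; other cytosines and tiles are named to describe the stretch around them and were chosen after their values were seen. The members and gene lists were chosen with earlier results of these data known. One further pathway list is not reported here. Replicate numbers were not used as pairs, since in no comparison did every pair of same-numbered libraries correlate by more than 0.1. Single pairs reached 0.288 (cortex at 12 h), and this check cannot exclude a pairing.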

Additional observations from a re-analysis of the deposited data

Results flagged for a closer look

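A library stood apart from the others of its group in 6 of 72 groups checked for the members and the library mean, where chance gives about 1 in 20 (the gap to the nearest library against the range of the group). For Colq in LPS cortex at 24 h 1 library had 67.4%, against 77.3 to 77.9% in the others. For Chat in LPS cortex at 12 h 1 library had 13.9%, against 16.5 to 16.7%, and in the same group 1 library had a mean over all cytosines of 30.2%, against 32.3 to 32.8%. For Prima1 in LPS hippocampus at 6 h 1 library had 11.9%, against 12.7 to 12.8%. For Pon2 in LPS blood at 6 h 1 library had 0.757%, against 0.198 to 0.265%, and for Ache in saline cortex 1 library had 1.87%, against 0.879 to 0.971%.

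The LPS difference in blood differed from that in a brain region by a test of the difference itself (limma, all 44 libraries in 1 model) for the following members. For Colq it was larger in blood than in hippocampus by 54.6 points at 6 h (95% interval 42.7 to 66.4), 65.0 at 12 h and 62.8 at 24 h, and than in cortex by 45.6 (34.2 to 57.0), 47.2 and 49.8 points. For Chat it was larger than in hippocampus by 5.80 (3.44 to 8.15), 5.23 and 4.83 points, and than in cortex by 4.98 (2.72 to 7.23), 6.22 and 4.10 points. For Prima1 it was larger than in hippocampus by 2.25 points at 6 h and 2.81 at 12 h, and than in cortex by 2.46 points at 12 h. For Slc18a3, whose cytosines are all shared with Chat, it was larger than in cortex by 2.56 points at 12 h. Colq rested on 4 cytosines in this model, all within its stretch of 9. The neutrophil marker list moved in blood too, and its part in these differences was not tested.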

How the results depend on the processing

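Counts of called members at the gene level in blood moved when only cytosines within 1000 bp of a span end were used (1, 2 and 1 after 6, 12 and 24 h), with the median over cytosines (2 at 6 h), and on cytosines in all 9 tables (5 at 24 h). Colq has no cytosine near a span end and was not tested there. Without the 5 to 95% limit 1 promoter window was called at 6 h and 1 at 12 h, 5 members between saline cortex and blood and 3 between saline hippocampus and cortex. With at least 5 cytosines 3, 2 and 2 member tiles were called, and with at least 25 points 13, 11 and 14 cytosines. After centring, 2 members were called in blood against cortex at 12 h (2 to 4 without 1 library). The library mean in blood at 6 h differed by 1.65 to 2.22 points without 1 library and by 0.33 with medians (exact permutation p = 0.114). In hippocampus at 12 h 0 to 4 member cytosines were called without 1 library, and the 4 appeared without LPS replicate 2. Centring reversed Prima1 (-0.51), Ache (-1.57) and Pon2 (-1.81) at 6 h, Pon2 at 12 h (-1.93), Ache at 24 h (-1.71), and the blood differences against brain of Prima1 (-0.70 and -0.14) and Slc18a3 (-0.044). The median over cytosines reversed Pon1 at 12 h (10.47) and 24 h (10.4). The cause was not tested. Replicate numbers were not used as pairs in the main fits. With the number as a block, 3, 4 and 3 members were called in blood and 24, 27 and 30 cytosines. Except near span ends and with medians, the share of all features called at the same setting is not given beside these counts. They describe how the members' counts moved and have no background to be read against.

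Near span ends, 2351 of 4625, 2105 of 4120 and 2203 of 4497 genes tested in blood were called after 6, 12 and 24 h. With medians, the counts were 2798 of 5928, 2798 of 5379 and 2596 of 5700. Fewer genes were tested than in the main fits, where 6618 of 12664, 6708 of 11977 and 6216 of 12498 were called. The 721 genes of hippocampus at 6 h became 1 after centring, 0 with the block, 1 without the limit, 4 near span ends, 243 on shared cytosines, 2 with medians, 1090 with at least 10 cytosines and 0 to 223 without 1 library. In hippocampus at 12 h 419 genes were called without LPS replicate 2, and between saline hippocampus and cortex 727 without hippocampus saline replicate 2. The unknown depth limits all values alike.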

Other observations

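The cytosine at 137294637 on chromosome 5 (plus strand), past the end of Ache, had the widest range of the gene, and its libraries were spread within groups. In blood the libraries had 1.61 to 36.9% at 6 h after LPS and 0 to 45.9% after saline. In hippocampus they had 2.94 to 54.5% at 24 h after LPS and 1.64 to 6.90% after saline, and in cortex 0 to 35.1% at 6 h after LPS and 3.70 to 48.6% after saline. Low and high libraries stood side by side in most groups, treated or not, and no sequence variant was examined.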
